A study of Mus musculus with 6 samples.

Results

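Antibody genes of whole mouse bone marrow were read by 69 of the 45101 probe sets on the Affymetrix arrays used here. A probe set is a group of short array probes that together give 1 signal for a transcript. The members were all probe sets whose gene symbol in the authors' deposited table starts with Igh (heavy chain), Igk (kappa light chain), or Igl-, Iglv or Iglc (lambda light chain), together with Igj, the joining chain. Igll1 and Ighmbp2 were left out. The rule used names and no measured values. It gave 34 heavy, 30 kappa and 4 lambda probe sets and 1 for Igj. The study compared c-Jun inducible mice before induction (control, day 0, 3 arrays) with the same kind of mice after 24 h of doxycycline at 1 mg/ml in the drinking water (induced, day 1, 3 arrays). Mice were 8 weeks old, and each array held marrow RNA pooled from 3 mice, so that single mice cannot be seen. All 6 arrays came from mice carrying the inducible c-Jun, and the labels give neither strain nor the promoter or cell type in which it is induced. Doxycycline, induced c-Jun and day differ between the groups together and cannot be told apart, because no array of mice given doxycycline without c-Jun was analysed here.

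An antibody is built from 2 identical heavy chains and 2 identical light chains, and the light chains of 1 cell are all kappa or all lambda. Each chain joins a variable region, assembled from gene segments in the developing B cell, to a constant region. The heavy constant region sets the class, with Ighm for IgM, Ighg for IgG and Igha for IgA. B cells are made in the bone marrow and first carry IgM on their surface, while plasma cells, of which many lodge in the marrow, secrete antibody and hold very large amounts of antibody mRNA. The joining chain links IgM and IgA into polymers. In mice, kappa is the predominant light chain.

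Among the members, the RefSeq promoter table (build GRCm38.p6) held an entry for the joining chain alone, now named Jchain, and the gene segments of the chains had none. The 250 bases before the start of Jchain lie on the minus strand at chr5:88527898-88528147. They are shown beside those of Vpreb3, a partner of the heavy chain in precursor B cells, at chr10:75948050-75948299 on the plus strand. Immunoglobulin variable region promoters are known for the octamer ATGCAAAT, which binds the Oct factors and their B cell partner Pou2af1, and in capitals is its match, here on the opposite strand as ATTTGCAT.
Jchain: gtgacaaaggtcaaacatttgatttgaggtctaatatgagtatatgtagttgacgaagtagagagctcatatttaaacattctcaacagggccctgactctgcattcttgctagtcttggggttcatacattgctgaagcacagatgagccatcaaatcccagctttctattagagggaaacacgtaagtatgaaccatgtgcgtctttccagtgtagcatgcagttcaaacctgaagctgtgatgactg
Vpreb3: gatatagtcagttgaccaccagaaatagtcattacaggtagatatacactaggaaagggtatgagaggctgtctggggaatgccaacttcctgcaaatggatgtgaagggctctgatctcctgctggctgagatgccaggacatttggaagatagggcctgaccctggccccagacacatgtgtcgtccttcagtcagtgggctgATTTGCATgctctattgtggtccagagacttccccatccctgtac
The Vpreb3 window holds 1 octamer, 45 bases before the gene start, and the Jchain window holds 0. The promoters of the surrogate light chain genes Igll1, Vpreb1 and Vpreb2 hold 0 each. Vpreb3, listed with these genes, is shown because it holds a match. Searched on both strands over the 300 bases of each table entry, 1.74% of 32851 promoters hold it. These matches describe letters and not binding.

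Values are the authors' deposited MAS5 signals in arbitrary units, and a signal of 2, the maximum over the 27 bacterial control probe sets, is taken as background (a level chosen after the data were seen). The summed signal of an array ran from 251862 to 340968, and the number of arrays limits the precision. The control probe sets for RNA added at hybridisation had a ratio of 0.997 between the groups, whereas for the 3390 probe sets averaging over 10 in either group there was a median induced over control ratio of 1.36. Ratios of signals below are as deposited and include this general shift. Tests used log2(signal + 16) in limma, and a probe set was called when its adjusted p over all 31526 probe sets tested was under 0.05. Changes on the log2(signal + 16) scale understate those of dim probe sets. The 5' probe set of Gapdh reached 16.5% ± 5.50 of the 3' signal in controls and 27.5% ± 1.58 after induction. All values after ± are SDs over the 3 arrays of a group. Its part in the results was not tested. In whole marrow, more cells of a type and more RNA per cell cannot be told apart.

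The brighter kappa and lambda light chain probe sets were called higher after induction, those of IgM heavy chain disagreed (2 called higher and 1 lower), those of IgA heavy chain were not called, and Igj was called higher with little margin. Of the 69 members 58 passed the filter on dim values, and of these 12 were called higher, 1 lower and 45 neither. Over all probe sets tested 4.19% were called higher and 1.35% lower. Among the 12 members whose mean over all 6 arrays was over 10, 9 were called higher and 0 lower, against 32.7% and 8.26% of all 2868 probe sets that bright. The 3 not called were the IgA heavy chain probe sets. The member called lower, Ighm 1425385_a_at, had means of 14.8 in controls and 5.0 in induced arrays. It fell just under that cut, so the 0 lower depends on where the cut lies. The groups did not overlap for 18 members with induced arrays higher and 3 with induced arrays lower, where the shares of all tested probe sets were 10.9% and 7.12%. Probe sets of 1 chain share sequence, and 20 of the 69 have names ending in _x_at, which marks probes that may also bind related sequences, so the counts are not of independent genes. At a pseudocount of 1 in place of 16, 1 member was called higher, Igkv15-103.

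**Figure D1:**
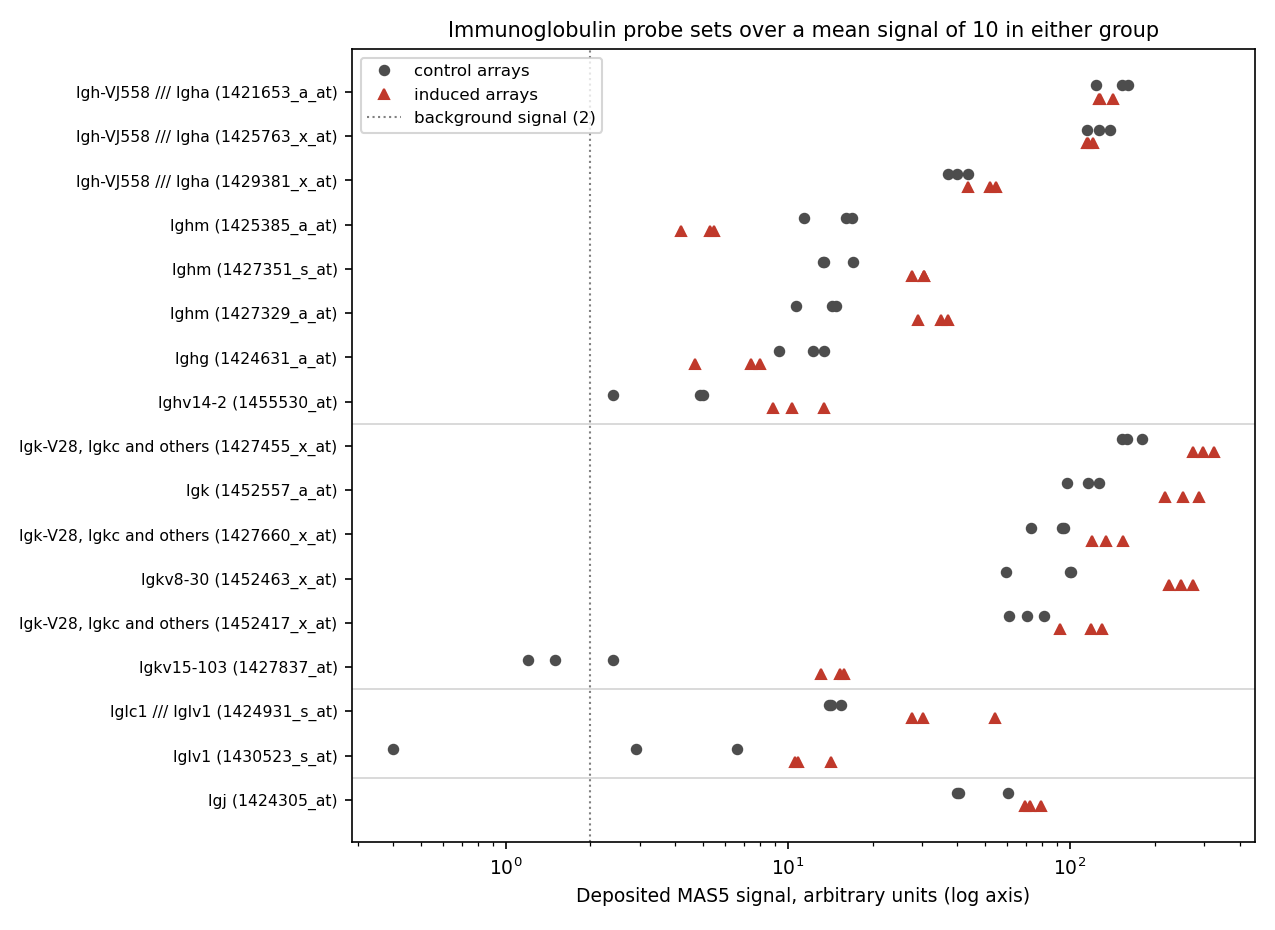
Deposited signal (log axis, arbitrary units) of the 17 immunoglobulin probe sets with a mean over 10 in either group, by array, with heavy, kappa, lambda and joining chain separated by lines and the background signal of 2 dotted. All kappa and lambda probe sets shown have induced arrays (triangles) above all control arrays (circles). The 3 Igha probe sets overlap or meet, and Ighm 1425385_a_at and Ighg 1424631_a_at lie the other way. Igkv15-103, Iglv1 1430523_s_at and Ighv14-2 passed 10 only by their induced mean, and these Ighm and Ighg probe sets only by their control mean. Their separation is therefore partly given by the choice of probe sets shown.

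Kappa light chain probe sets were 1.55-fold to 8.69-fold higher in the 6 called, of 30 in all. The probe set for the kappa complex, Igk (1452557_a_at), gave signals of 115.7, 98.0 and 127.3 in controls and 288.2, 251.2 and 217.7 in induced arrays. Every induced array was above every control, and the mean rose 2.22-fold, from 113.7 ± 14.8 to 252.4 ± 35.3 (log2 change 1.05, SE 0.11, limma adjusted p = 6.12e-04). Igkv8-30 (1452463_x_at), a variable segment, gave 100.9, 59.6 and 100.5 in controls and 272.7, 224.6 and 247.4 in induced arrays. It rose 2.85-fold, with control 2 the lowest array (log2 change 1.38, SE 0.15, adjusted p = 9.09e-04).

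The other kappa probe sets over a mean signal of 50 carry 1 and the same field of 6 symbols, including the constant region Igkc and the joining segment Igkj1, so that what each reads cannot be told apart. The first (1427455_x_at) gave 159.9, 153.1 and 181.0 in controls and 323.9, 295.9 and 273.9 in induced arrays, a 1.81-fold rise (adjusted p = 4.40e-04). The second (1427660_x_at) rose from 87.6 ± 12.7 to 135.9 ± 17.2 (adjusted p = 0.0135) and lost its call without induced 3 (adjusted p = 0.0533) and after quantile normalization (adjusted p = 0.0880), scaling to 1 median (0.0921) or scaling to 1 trimmed mean (0.155). The third (1452417_x_at) rose from 70.8 ± 10.2 to 113.8 ± 19.2 (adjusted p = 0.0185) and lost its call without control 1 (0.0583), control 2 (0.0955), induced 1 (0.0502) or induced 3 (0.0819) and after scaling to 1 trimmed mean (0.0980). All 3 had groups without overlap. The ratios of the last pair, 1.55 and 1.61, stand beside the general shift of 1.36.

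A single kappa variable segment went from near background to a clear signal. Igkv15-103 (1427837_at) gave 1.5, 1.2 and 2.4 in controls and 15.9, 13.1 and 15.3 in induced arrays. The ratio of means was 8.69, but 2 of the 3 controls were at or under background, so that the ratio rests on values that may be background. Its log2 change was 0.80 (SE 0.06, adjusted p = 7.91e-05), and the call held under all 15 alternatives, with an adjusted p of at most 0.00230. In the authors' deposited table its induced over control ratio was 7.79, with an unadjusted p-value of 5.53e-04.

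Lambda light chain was higher by 2 of its 4 probe sets. The probe set shared by the constant region Iglc1 and the variable region Iglv1 (1424931_s_at) gave 14.0, 14.3 and 15.4 in controls and 54.5, 27.7 and 30.2 in induced arrays. The controls lay close together and induced 1 stood well above the other induced arrays. The mean rose 2.57-fold, from 14.6 ± 0.74 to 37.5 ± 14.8 (log2 change 0.77, SE 0.15, adjusted p = 0.0169). The call was lost without control 1 (adjusted p = 0.0583), control 2 (0.0935) or control 3 (0.0630). Without induced 1 its log2 change was 0.56 and the call held (adjusted p = 0.00108). Iglv1 alone (1430523_s_at) gave 2.9, 0.4 and 6.6 in controls and 14.2, 10.9 and 10.6 in induced arrays, a rise with an adjusted p of 0.0170 that was lost without control 1 (0.0585), control 2 (0.0550) or induced 1 (0.0529). Without control 1 or control 2 the lambda probe sets called were therefore 0, and without control 3 or induced 1 there was 1. The remaining 2 Iglv1 probe sets had no signal over 6.4 on any array.

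**Figure D2:**
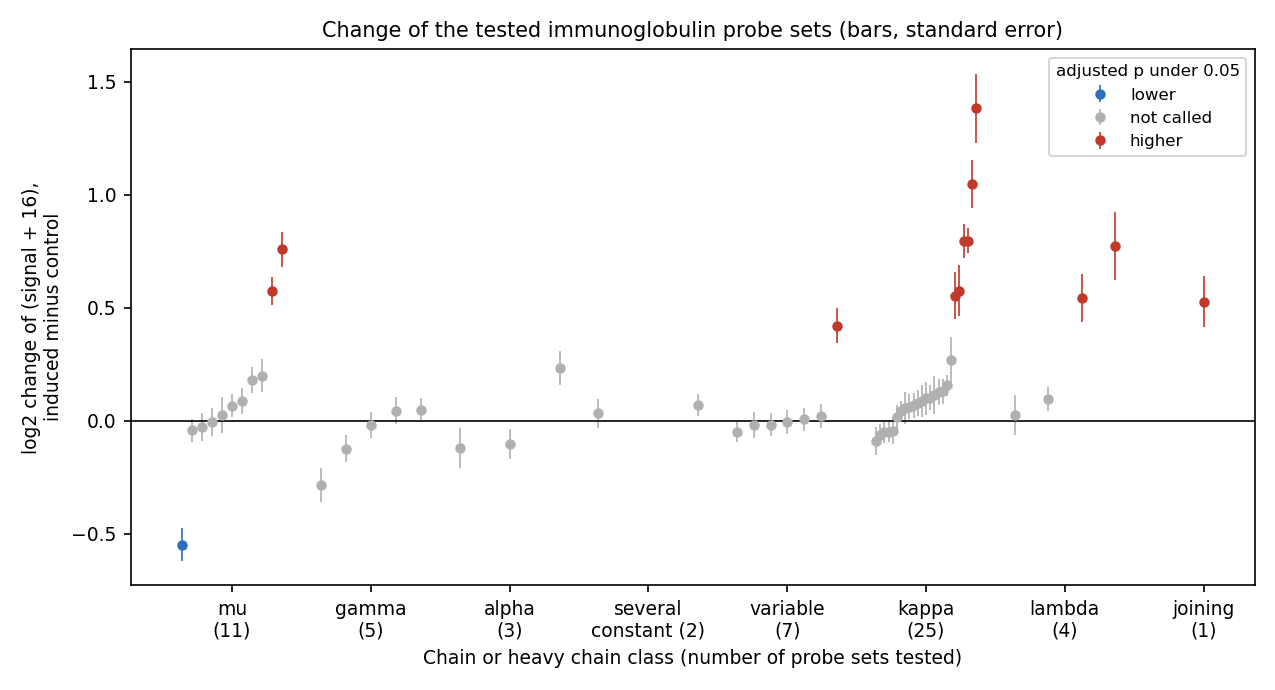
Log2 change of (signal + 16), induced minus control, of the 58 immunoglobulin probe sets tested, with bars of 1 standard error, by heavy chain class or light chain. Red probe sets were called higher and the blue one lower at an adjusted p under 0.05; kappa, lambda and mu hold 10 of the 12 called higher, and gamma and alpha hold 0, with an unadjusted p under 0.05 for 1 probe set in each.

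IgM heavy chain, mu, was higher by 2 probe sets and lower by another. Ighm by 1427329_a_at gave 10.7, 14.8 and 14.4 in controls and 35.1, 36.9 and 28.9 in induced arrays, and rose 2.53-fold, from 13.3 ± 2.26 to 33.6 ± 4.2 (log2 change 0.76, SE 0.08, adjusted p = 6.33e-04). By 1427351_s_at it gave 13.3, 13.4 and 17.0 against 27.6, 30.4 and 30.5, a 2.03-fold rise (adjusted p = 7.62e-04). Both calls held without any 1 array, with adjusted p up to 0.00579 and 0.00724. The same gene by 1425385_a_at gave 16.1, 11.4 and 16.9 in controls and 5.3, 5.5 and 4.2 in induced arrays. It fell from 14.8 ± 2.97 to 5.0 ± 0.70, a log2 change of -0.55 (SE 0.07, adjusted p = 0.00231), with no overlap and the call held without any 1 array (adjusted p up to 0.0146). The probe sets of Ighm thus disagree in direction, and the files used here do not give the part of the transcript that each reads. The other 9 probe sets whose only constant region was mu were dim, with no signal over 6.8 and none called.

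Ighv14-2 (1455530_at), a heavy chain variable segment, gave 2.4, 4.9 and 5.0 in controls and 13.5, 8.9 and 10.4 in induced arrays. It rose 2.67-fold without overlap (log2 change 0.42, SE 0.08, adjusted p = 0.0118), and held its call without any 1 array (adjusted p up to 0.0438), but lost it when no filter on dim values was used (0.0669). It was the 1 of 10 variable segment probe sets with a signal over background. The other 9 were at or under 2 on all 6 arrays, and 7 of these carry the name of the J558 family of segments, Igh-VJ558, as their only symbol.

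IgG heavy chain was lower in value, without a call. Ighg (1424631_a_at) gave 9.3, 12.3 and 13.4 in controls and 4.7, 7.4 and 8.0 in induced arrays, so that every induced array was below every control. The means were 11.7 ± 2.12 and 6.70 ± 1.76 (log2 change -0.29, SE 0.08, adjusted p = 0.0669). It was called lower without control 1 (adjusted p = 0.0392), after quantile normalization (0.00652), after scaling to 1 median (0.0105) and after scaling to 1 trimmed mean (0.0326). The authors' deposited table holds it as 2.74-fold higher in controls, with an unadjusted p-value of 2.24e-04. The other 4 gamma probe sets, 2 of them for Ighg3, had no signal over 3.2.

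IgA heavy chain, alpha, was the class that was bright in both groups and was not called higher. Its 3 probe sets all carry Igha together with Igh-VJ558. The first (1421653_a_at) gave 152.6, 123.9 and 161.4 in controls and 142.4, 127.7 and 126.7 in induced arrays, with overlapping groups and means of 146.0 ± 19.6 and 132.3 ± 8.79 (log2 change -0.12, SE 0.09, adjusted p = 0.652). The second (1425763_x_at) had means of 127.2 ± 12.2 and 117.2 ± 3.58 (adjusted p = 0.606). Both had a direction that scaling did not turn, and the first was called lower after quantile normalization (log2 change -0.50, adjusted p = 0.00441) and scaling to 1 median (adjusted p = 0.0352), and the second after quantile normalization (adjusted p = 0.0232). The third (1429381_x_at) gave 40.0, 36.9 and 43.5 against 54.8, 43.5 and 52.0, where control 3 and induced 2 are equal, with means of 40.1 ± 3.30 and 50.1 ± 5.89 (log2 change 0.23, adjusted p = 0.138). It was called higher without induced 2 (adjusted p = 0.0371). Under the other 14 of 15 alternatives it was not called, with a log2 change down to 0.0198 and an adjusted p up to 0.938. For that probe set the authors' deposited table has the opposite direction, with an induced over control ratio of 0.896 and an unadjusted p-value of 0.00738.

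The joining chain, Igj, was called higher with all 6 arrays. It gave 40.5, 39.7 and 60.5 in controls and 79.1, 72.5 and 69.6 in induced arrays, with control 3 well above the other controls and no overlap. The mean rose 1.57-fold, from 46.9 ± 11.8 to 73.7 ± 4.87 (log2 change 0.53, SE 0.11, adjusted p = 0.0250). The call held without control 3 (adjusted p = 0.00159) and was lost without control 1 (0.0925), control 2 (0.123), induced 1 (0.0770), induced 2 (0.0591) or induced 3 (0.0663), and under each scaling between arrays.

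Ratios between members on the same array do not depend on the scaling of the array, and are given as description. The 7 pairs were chosen after the values were seen, each with 1 probe set for a chain, and no test was made of them. Other probe sets of a chain changed by other amounts, so the size of a shift is that of the pair. The induced over control ratio was 0.906 for Igha 1421653_a_at and 1.25 for Igha 1429381_x_at. For kappa it was 2.22 by Igk 1452557_a_at and 1.55 by 1427660_x_at. The Ighm probe sets were picked by their calls, higher for 1427329_a_at and lower for 1425385_a_at. Their opposite shifts follow from that choice. The log2 ratio of Igha (1421653_a_at) to Igk (1452557_a_at) was 0.36 ± 0.03 in controls and -0.93 ± 0.13 in induced arrays, a 2.44-fold shift. Against Ighm (1427329_a_at) the log2 ratio of Igha was 3.46 ± 0.39 in controls and 1.98 ± 0.17 in induced arrays, a 2.79-fold shift. In both pairs every induced array was below every control. Against the Ighm probe set that was called lower (1425385_a_at) Igha shifted the other way, from a log2 ratio of 3.31 ± 0.11 to 4.73 ± 0.19, so that the direction of IgA against IgM turns with the probe set chosen. Igj moved up against Igha, from a log2 ratio of -1.66 ± 0.25 to -0.84 ± 0.02, and down against Igk, from -1.30 ± 0.22 to -1.77 ± 0.11, again without overlap. These Igj shifts also belong to the probe sets chosen. Igj rose 1.57-fold, close to the 1.55-fold and 1.61-fold of kappa 1427660_x_at and 1452417_x_at, and Igha 1429381_x_at was 1.25-fold higher. Lambda (1424931_s_at) against Igk overlapped, at -2.96 ± 0.16 and -2.81 ± 0.39. The disagreeing Ighm probe sets, 1425385_a_at over 1427329_a_at, shifted most among these 7 pairs, from a log2 ratio of 0.15 ± 0.49 to -2.75 ± 0.03, a 7.46-fold shift.

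**Figure D3:**
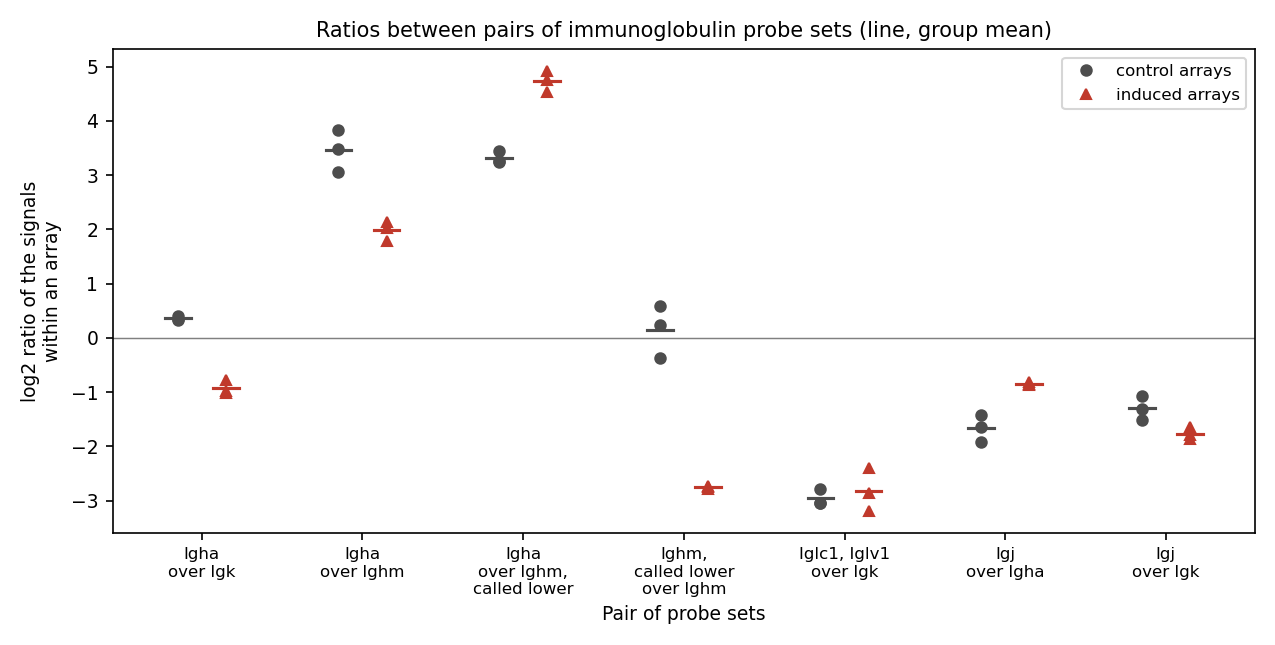
Log2 ratio of the signals of 7 pairs of immunoglobulin probe sets within each array (Igha is 1421653_a_at, Igk 1452557_a_at, Ighm 1427329_a_at and the Ighm called lower 1425385_a_at), with lines at the group means. In 6 pairs the 3 control and 3 induced arrays do not overlap, and Iglc1, Iglv1 over Igk overlaps.

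The signal of each chain was also summed over its probe sets. These sums count a transcript once for each probe set that reads it, so they describe signal and not molecules, and no test was made. Kappa summed to 562.1, 479.4 and 617.4 in controls and 1234, 1032 and 1051 in induced arrays, a ratio of 2.0. Lambda summed to 20.5, 18.4 and 25.8 against 72.9, 47.3 and 43.8, a ratio of 2.53. Both had every induced array above every control. Heavy chain sums were 401.0, 365.0 and 422.1 against 428.0, 406.2 and 412.1, which overlap, with a ratio of 1.05 that fell below 1 when arrays were scaled (0.941 with 1 trimmed mean, 0.863 with 1 median, 0.825 after quantile normalization). Of the heavy chain signal the 3 alpha probe sets had sums of 313.3 ± 32.5 and 299.6 ± 13.5, the 12 mu probe sets 55.9 ± 6.21 and 88.0 ± 5.06, and the 5 gamma probe sets 15.5 ± 3.33 and 9.90 ± 2.40. All 69 members together made up 0.496% ± 0.0649 of the signal of an array, control probe sets left out, in controls and 0.671% ± 0.0250 in induced arrays.

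**Figure D4:**
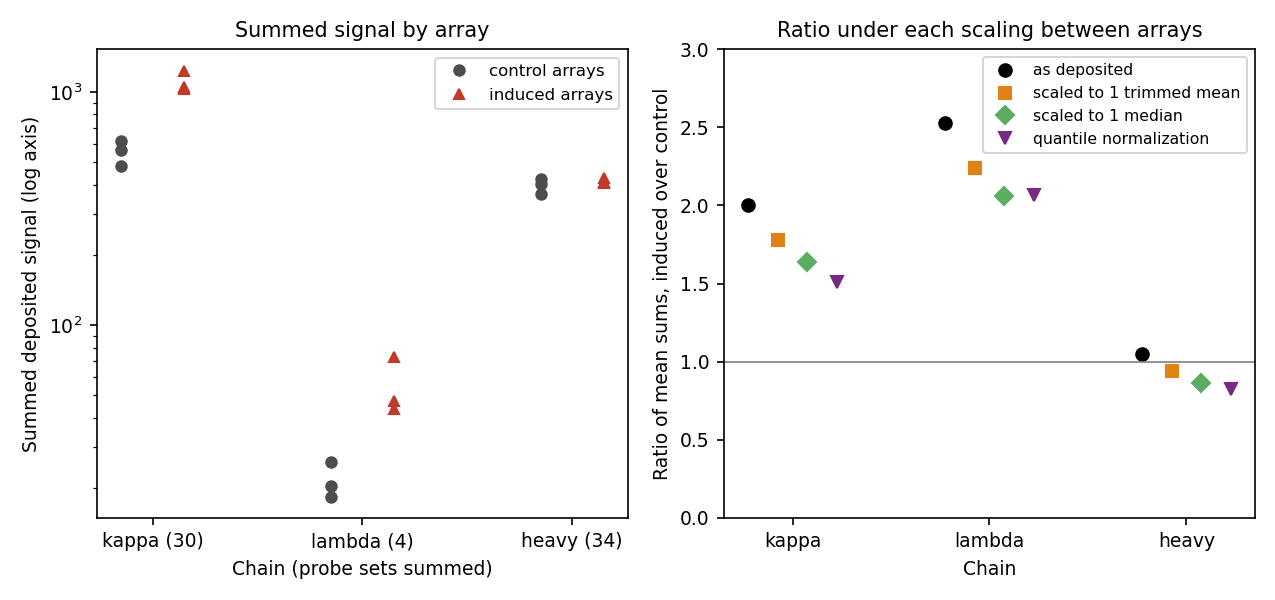
Left, summed deposited signal (log axis) of the kappa, lambda and heavy chain probe sets in each array. Right, ratio of the mean sums, induced over control, as deposited and under 3 scalings between arrays; kappa runs from 1.51 to 2.0, lambda stays above kappa under each, and heavy chain lies at 1.05 as deposited and under 1 otherwise.

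Most antibody probe sets were dim. In 52 of the 69 the mean signal was 10 or lower in both groups, and 27 were at or under background on all 6 arrays. None of these 52 was called (limma), with an unadjusted p under 0.05 in 5 of the 41 tested. They hold 26 heavy chain probe sets with signals up to 6.8, 24 kappa probe sets with signals up to 7.3, and 2 lambda ones. Groups did not overlap for 7 of the 41 tested, with 1 lower and 6 higher in induced arrays (7.12% and 10.9% over all probe sets tested), among them the kappa segments Igk-V21, with 2.8, 3.3 and 2.7 against 5.1, 4.6 and 5.6 (adjusted p = 0.113), and Igk-V1 with Igkv9-120 (1460423_x_at), with 1.6, 1.2 and 3.4 against 4.2, 3.5 and 3.5 (adjusted p = 0.356). Neither passed the threshold adjusted over all probe sets tested.

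The authors' deposited table, whose input values are not stated, differed from the deposited signals in the size of its ratios. Its induced over control ratio was 1.67 for Igk, 1.32 for 1427455_x_at and 1.39 for Igkv8-30, which was 2.85 by the deposited signals. Its control over induced ratio was 5.53 for Ighm 1425385_a_at. All 3 Igha probe sets were lower in induced arrays there, with unadjusted p-values from 0.00738 to 0.0250. At an unadjusted p-value under 0.05 that table had 15 members higher and 7 lower in induced arrays, where 6.45% and 6.01% of all probe sets were. The authors' deposited list of at least 2-fold differences held 7 members as higher and 2 as lower, where it held 1.53% and 0.999% of all probe sets. Both come from the arrays described above and add no independent evidence.

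Genes that work with antibodies in B cells and plasma cells are given from lists chosen for this pathway, each gene read by its brightest probe set. Of all probe sets tested, the median log2 change was -0.0045, and 0.24 for those with a mean signal over 10. The counts below stand beside shares called higher of 4.19% over all probe sets tested and 32.7% over those with a mean signal over 10, and called lower of 1.35% and 8.26%, and nothing particular to a list is read from them. Of 3 genes tested from the surrogate light chain list 0 were called (median log2 change 0.03, with an unadjusted p under 0.05 in 2). Igll1 and Vpreb1 of this list stand in for the light chain in precursor B cells, and Vpreb3 was listed with them. After quantile normalization, after scaling to 1 median and without induced 3, 1 of the list was called lower. Igll1 had means of 4.0 and 4.37. Vpreb1 gave 20.1, 19.1 and 17.9 against 12.6, 6.1 and 16.9, lower without overlap and not called (adjusted p = 0.184). Vpreb3 gave 6.9, 5.3 and 7.4 against 10.7, 14.2 and 9.1 (adjusted p = 0.0688). Of 14 genes of recombination and class switching 1 fell and 0 rose (median 0.0045). It was Dntt, the enzyme that adds untemplated bases where segments join in developing lymphocytes, with 26.3, 25.9 and 45.2 against 10.6, 7.7 and 9.2 (log2 change -0.92, adjusted p = 0.00322, called without any 1 array).

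Of 19 B cell receptor signalling genes 3 rose and 0 fell (median log2 change 0.11). Cd79b, the chain that passes the receptor's signal into the cell, rose from 26.2 to 45.8 (adjusted p = 0.00400), and Cd81, a membrane protein that many other cells also carry, from 18.6 to 69.0 (adjusted p = 0.00140). The phosphatase Ptprc, found on all white cells, was called with all 6 arrays and lost the call without control 2 (adjusted p = 0.0544) or induced 3 (0.0514); without either 1 of these, 2 of the list were called. Ptprc also lost its call after quantile normalization (adjusted p = 0.163), scaling to 1 median (0.15) and scaling to 1 trimmed mean (0.123). Cd79a had means of 11.1 and 17.9 without overlap (adjusted p = 0.0547), and the B cell markers Ms4a1 (8.10 and 13.4) and Cd22 (2.60 and 3.03) were not called. Of 25 surface markers of B cells 8 rose and 0 fell (median 0.21). After scaling to 1 median 5 rose and 1 fell, and without control 3 there were 5 rises. The 4 with the smallest p were the MHC class II genes H2-Ab1, Cd74, H2-Aa and H2-Eb1, which dendritic cells and macrophages also express. Of 18 B lineage transcription factors 1 rose and 1 fell (median 0.02). The octamer coactivator Pou2af1 rose from 32.4 to 55.3 (adjusted p = 0.00204), and Bcl11a, lower at 5.57 and 2.07, lost its call without control 3, induced 2 or induced 3 (adjusted p = 0.0574 to 0.0647). Without a call, Irf8 (means 11.8 and 5.97, adjusted p = 0.0543) and Bach2 (15.6 and 10.1, 0.0981) were lower without overlap. Sox4 (8.13 and 14.2, 0.107), Lef1 (5.83 and 10.6, 0.303) and Mef2c (4.97 and 7.17, 0.399) were higher without overlap, also not called. Without control 1, 3 of these factors were called lower, and after quantile normalization 4.

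**Figure D5:**
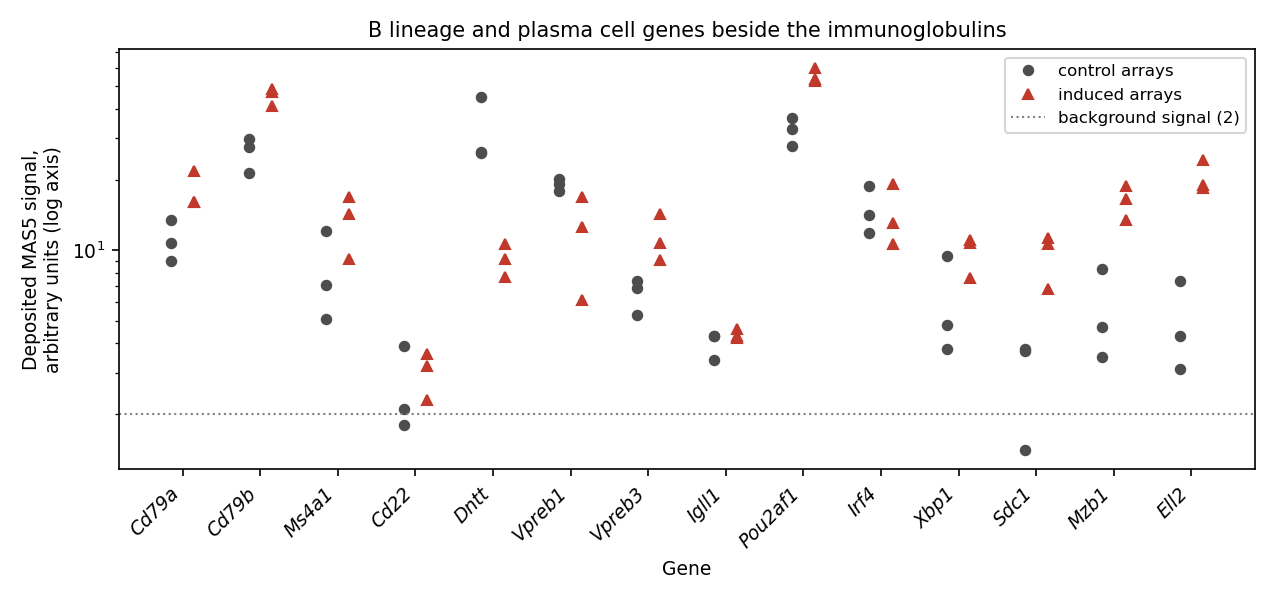
Deposited signal (log axis, arbitrary units) of 14 B lineage and plasma cell genes by array, with the background signal of 2 dotted. The 14 were picked from the lists by no rule, with results known. Among the genes not shown, Bcl11a was called lower and Cd81 and H2-Ab1 were called higher. Cd79b, Pou2af1, Sdc1, Mzb1 and Ell2 have all induced arrays (triangles) above all controls (circles) and were called higher, and Dntt lies the other way. Without a call, Cd79a and Vpreb3 have all induced arrays above all controls and Vpreb1 has them below. Ms4a1, Cd22, Igll1, Irf4 and Xbp1 overlap.

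Of 18 genes of plasma cell identity 4 rose and 0 fell (median log2 change 0.06). Ell2, an elongation factor that favours the secreted form of heavy chain mRNA, gave 3.1, 7.4 and 4.3 in controls and 24.3, 18.4 and 18.9 in induced arrays (log2 change 0.81, adjusted p = 8.05e-04). Mzb1, a chaperone of antibody assembly, gave 3.5, 8.3 and 4.7 against 18.8, 16.6 and 13.4 (adjusted p = 0.00466). Both stayed called without any 1 array. Sdc1, the plasma cell surface proteoglycan, gave 3.8, 1.4 and 3.7 against 11.3, 6.8 and 10.6 (adjusted p = 0.0135) and lost its call without control 2 (0.0635) or induced 3 (0.0658). Xbp1 and Irf4, factors that plasma cells need, were not called, with means of 6.0 and 9.80 and of 14.9 and 14.3. Prdm1 and Tnfrsf17 were at or under background on all arrays. After quantile normalization 1 gene of that list was called lower.

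Of 34 tested genes of folding and secretion in the endoplasmic reticulum 5 rose and 1 fell (median log2 change 0.16). Ergic1 rose from 6.43 to 24.1 (adjusted p = 1.35e-04), the disulphide isomerases P4hb from 36.3 to 61.5 (adjusted p = 6.27e-04) and Pdia3 from 10.4 to 24.2 (adjusted p = 0.00273), and the chaperone Canx from 30.6 to 49.2 (adjusted p = 0.00833). Ssr4 lost its call without any 1 of 5 arrays (adjusted p up to 0.172) and the chaperone Hsp90b1, called lower, without any 1 of 4 (adjusted p up to 0.133). Without induced 2 there were 8 rises, and 0 falls without control 2, control 3, induced 2 or induced 3. Of 14 tested receptors for antibody 3 rose and 0 fell (median 0.0020). Fcgr3, an IgG receptor of myeloid and NK cells, gave 10.8, 12.4 and 21.0 against 43.5, 45.5 and 51.8 (log2 change 1.05, adjusted p = 7.45e-04), and Fcgr4, another IgG receptor, went from 13.0 to 30.5 (adjusted p = 0.00536). Their shared signalling chain Fcer1g rose from 51.8 to 81.6 (adjusted p = 0.00946) and lost its call without control 2 (0.0566), which left 2 of the list called. Of 11 tested genes for survival and homing of antibody-secreting cells 2 rose, the chemokine Cxcl12, from 4.07 to 11.1 (adjusted p = 0.00906), and the adhesion molecule Vcam1, which lost its call without control 1, control 2, induced 1 or induced 3 (adjusted p = 0.0846 to 0.104) and under each scaling between arrays (0.0719 to 0.115). The list had 1 rise without control 1, control 2 or induced 1.

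Markers of other marrow cells moved between the same arrays, and their part in the antibody results was not tested. Of 8 erythroid markers tested 7 fell and 0 rose, and the summed signal of the list ran from 1118 to 1312 in controls and from 256.3 to 332.8 in induced arrays. Of 5 eosinophil markers 3 rose, with sums of 22.2 to 33.2 and 223.1 to 272.7. Of 9 monocyte and macrophage markers 5 rose, with sums of 1342 to 1651 and 1428 to 1690. Without control 3 or induced 1 there were 2 such rises. Lyz1 and Lyz2, which were not called, gave most of the monocyte and macrophage sums. Neutrophil markers had 2 rises and 3 falls among 9, with sums of 8666 to 9929 and 10100 to 11800, and the rises were 0 without control 1 or control 2. Their median log2 change was -0.264. Most of the sums came from the 2 that rose, S100a8 (means 2836 and 3701) and S100a9 (4277 and 5410). After quantile normalization or scaling to 1 median the neutrophil markers had 0 rises and 5 falls. T cell markers summed to 6.8 to 9.3 and 15.9 to 20.1, with 1 of 8 called, which was 0 without control 3, induced 1 or induced 2. The 6 B cell markers summed to 46.6 to 58.7 in controls and 83.2 to 91.5 in induced arrays, with Pax5 at or under background. The 6 plasma cell markers summed to 24.2 to 40.0 and 44.3 to 61.2, with Prdm1 and Tnfrsf17 there.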

How the data were processed

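RNA of whole bone marrow was measured on 6 arrays, and groups came from the labels. The authors' deposited value table holds linear signal intensity per probe set, which the submitters' processing notes credit to MAS5. Its scaling target and version are not given in the sources used here. Per the file headers, a second table that the authors deposited holds, per probe set, ANOVA p-values without adjustment and the ratio of control to doxycycline. Its F statistics and signed folds, deposited as scores, were not used. Members and gene lists were chosen with earlier results of these data known.

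Signals were used as deposited, as log2(signal + 16). The 64 control probe sets were left out, and probe sets over the 30th percentile of mean log2 value were tested in limma 3.58.1 under R 4.3.3 (lmFit, eBayes), with Benjamini-Hochberg adjustment over all 31526. The p-values measure the spread between pools. The scripts were tested on simulated data. Symbols are those of the authors' table. Of 34 immunoglobulin symbols 28 are current in the RefSeq mouse gene table (used for names only), 2 were updated and 4 had no entry. Genes of the lists were named only from probe sets with 1 symbol. Named were the called members, those with a mean signal over 10 in either group, those of constant regions alone and Igj, 29 in all, and in each list the called genes, at most 6; Igk-V21, Igk-V1 and list genes that were not called were named after their values were seen. Figures were drawn with matplotlib 3.10.9. A gene of the B cell lists is not reported here.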

Additional observations from a re-analysis of the deposited data

How the results depend on the processing

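Alternatives changed 1 choice at a time. Without any 1 array, 8 to 12 members were called higher and 1 to 2 lower, with 3 to 4 heavy, 4 to 6 kappa and 0 to 2 lambda chain probe sets called higher, and 1181 to 1659 probe sets in all. At a pseudocount of 1, 1 member was called higher (1 kappa, 0 heavy, 0 lambda) and 0 lower, and 211 probe sets in all of 1747. With no filter 6 members were called higher, 0 of them lambda, and 841 in all. At a pseudocount of 64, 0 lambda probe sets and 1087 in all were called. The members called lower were 4 after quantile normalization, 3 after scaling to 1 median and 2 after scaling to 1 trimmed mean. Over all probe sets 1797, 1767 and 1635 were called in either direction. The share of all probe sets called lower was not counted under these scalings, so nothing particular to the members is read from these counts. Arrays with the same replicate number had correlations of deviations of -0.0693, 0.0378 and -0.0303 for numbers 1 to 3. Arrays with different numbers had -0.131 to 0.147. With 3 arrays in a group these values cannot settle whether the numbers pair the arrays. With the replicate block 2 members were called lower, Ighg 1424631_a_at (adjusted p = 0.0273) with Ighm 1425385_a_at, and 1377 probe sets were called in all. Ighv14-2 then lost its call (0.0562) and the log2 change of Jchain (Igj) was 0.53 (adjusted p = 0.0618).

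Jchain lost its call at a log2 change of 0.53 with an intensity trend (adjusted p = 0.113) and no filter (0.132), 0.67 at a pseudocount of 1 (0.479), 0.32 at 64 (0.0737), 0.31 after quantile normalization (0.0870) and scaling to 1 median (0.0842), 0.42 after scaling to 1 trimmed mean (0.110), and 0.45 to 0.56 without any 1 array but control 3 (0.68 without control 3, where the call held). The summed signal ratio was 1.25 after quantile normalization and 1.33 with 1 median for all members, 1.51 and 1.64 for kappa, and 0.825 and 0.863 for heavy chain (0.941 with 1 trimmed mean). Without 1 array it was 1.53 to 1.71 for all members, 1.88 to 2.12 for kappa, 2.11 to 2.81 for lambda and 1.01 to 1.08 for heavy chain. Dim probe sets changed sign: Ighm 1427756_x_at (-0.0133 with 1 median, -0.0473 to 0.124 without 1 array), Ighg3 1447998_at (-0.0501 to 0.0303) and Ighm 1452535_at (-0.0788 to 0.022). The cause of these changes was not tested. The number of arrays and signals near background limit all of them.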
